A study of Macaca mulatta with 24 samples.

Results

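The serotonin receptors examined here were HTR1A, HTR1B, HTR1D, HTR2A, HTR2C, HTR4, HTR6 and HTR7, that is 8 of the 17208 gene entries measured by RNA-Seq in the nucleus accumbens core (NAcc) of 24 rhesus macaques (Macaca mulatta). They were chosen by name, as the serotonin receptor genes listed for this account, and not by their values. All animals were unrelated adult males trained on operant drinking panels, in which scheduled food delivery first induced drinking, and all were then kept for a year of daily open access and necropsied without imposed abstinence. The 8 controls went through the same procedure with water at both spouts and received maltose dextrin to match calories. The 8 LD* animals (labelled LD, and drawn by the study from low and binge drinkers) and the 8 HD* animals had a choice of ethanol and water, and the HD* group joined 4 heavy drinkers (HD) and 4 very heavy drinkers (VHD). Daily ethanol intake ran from 0.47 to 2.07 g/kg in LD*, from 2.74 to 3.09 g/kg in HD and from 3.09 to 3.78 g/kg in VHD animals. Drinkers sorted themselves into these categories, so intake was not assigned, and each value is from 1 dissected piece of tissue per animal.

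Serotonin reaches the accumbens along axons of the raphe nuclei, and nearly all of its receptors are coupled to G proteins. Receptors of the HTR1 group act through Gi/o and lower cyclic AMP, those of the HTR2 group act through Gq/11 and phospholipase C, and HTR4, HTR6 and HTR7 act through Gs and raise cyclic AMP. HTR1B and HTR1D are best known as brakes on transmitter release at axon terminals, HTR1A as the autoreceptor of raphe neurons and a postsynaptic receptor of cortex and limbic areas, HTR2C as a regulator of dopamine signalling, and HTR6 as a receptor rich in the striatum.

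The animals came from 4 cohorts, and only cohorts 5 (3 controls, 4 HD*) and 7a (2 controls, 3 LD*, 4 HD*) held both controls and HD* animals. The 2 animals of cohort 4 were LD*, and cohort 7b was split evenly into 3 controls and 3 LD*. Values are the authors' TPM, which count transcripts per length within a fixed total for each animal. Levels of different genes can be set side by side only as far as the gene lengths used were right, and those lengths are not stated. The read depth of an animal cannot be recovered from TPM. Defining markers of striatal projection neurons were present in every animal, with a summed level from 765 to 11852 TPM over 9 genes. One control from cohort 7b (control 6) stood apart. Its projection neuron sum of 765 TPM lay below the 2698 TPM of the next animal, its oligodendrocyte sum of 9138 TPM was the highest of the 24, and its median correlation with the other animals was 0.924 against 0.951 to 0.984 elsewhere. VHD 4 also differed, with the lowest median TPM over all genes (7.39) and the most genes at 0 (1511) of the 24 animals. The 5 markers of cortical excitatory neurons, which are not resident in the striatum, summed to between 1.42 and 872 TPM.

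HTR2C was the most abundant of the 8 receptors, and HTR1A and HTR7 were the lowest. HTR1A ranked last in 13 animals and HTR7 in 8. Over the 24 animals HTR2C averaged 55.9 ± 25.2 TPM and HTR6 32.8 ± 15.7 TPM (mean ± SD). HTR1B averaged 15.2 ± 7.5, HTR1D 14.9 ± 9.95 and HTR4 13.7 ± 6.84 TPM, while HTR2A averaged 5.32 ± 2.28, HTR1A 2.93 ± 2.48 and HTR7 2.57 ± 1.82 TPM. HTR2C ranked first in 23 of 24 animals and held 37.9% of the summed TPM of the 8 receptors on average, HTR6 held 23.1%, and HTR1A and HTR7 held 2.41% and 2.50%. The exception to the first rank was VHD 4, where HTR6 reached 24.3 TPM and HTR2C 9.91 TPM.

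Neighbours in this order were compared within each animal by a two-sided sign-flip permutation test on log2(TPM + 1) with 100000 resamples, adjusted over 7 neighbour pairs. The test measures how constant an order was across animals. An error in the length of a gene, shared by all animals, would not show in it. HTR2C lay 0.76 above HTR6 on the log2 scale (SE 0.14, adjusted p = 4.67e-05, permutation, higher in 23 of 24 animals). HTR6 lay 1.03 above HTR1B (SE 0.14, adjusted p = 3.50e-05, permutation, 22 of 24) and HTR4 1.12 above HTR2A (SE 0.13, adjusted p = 3.50e-05, permutation, 22 of 24), and these come from the smallest p that 100000 resamples can give, 1e-05. HTR2A lay 0.80 above HTR1A (SE 0.17, adjusted p = 0.000315, permutation, 21 of 24). HTR1B, HTR1D and HTR4 could not be ordered, with differences of 0.22 (SE 0.17, adjusted p = 0.274) and −0.044 (SE 0.23, adjusted p = 0.844), and neither could HTR1A and HTR7 (0.054, SE 0.16, adjusted p = 0.844).

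**Figure D1:**
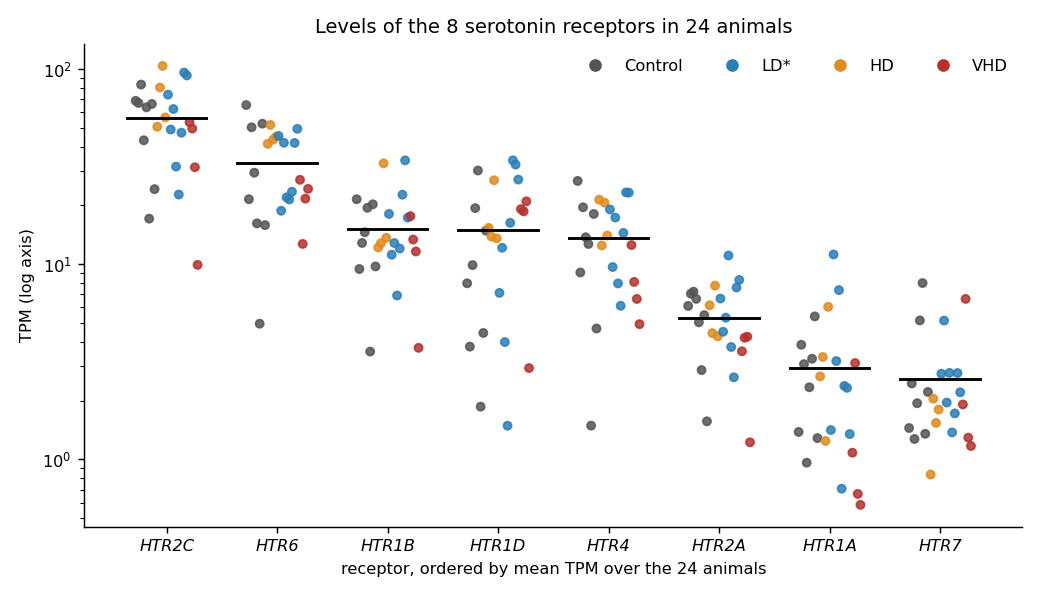
TPM of each receptor on a log axis, 1 point per animal colored by group, with a line at the mean of the 24 animals. The means step down from 55.9 TPM for HTR2C to 2.93 TPM for HTR1A and 2.57 TPM for HTR7, and HTR1B, HTR1D and HTR4 overlap throughout.

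Every receptor varied more between animals than most genes did. The SD of log2(TPM + 1) over the 24 animals ran from 0.58 for HTR2A to 1.14 for HTR1D, against a median of 0.32 over the 13637 genes tested (mean of 1 TPM or more). Only 0.543% of those genes had a larger SD than HTR1D, and 9.75% had a larger SD than HTR2A. The highest animal exceeded the lowest by 9.05-fold for HTR2A and by 22.9-fold for HTR1D. These spreads set what could be seen between groups of 8.

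Whether chronic drinking went with a different receptor level was first asked in HD* animals against controls. The Gi/o-coupled HTR1A ran from 0.961 to 5.40 TPM in controls (median 2.71), from 0.707 to 11.2 TPM in LD* (median 2.35) and from 0.585 to 6.04 TPM in HD* animals (median 1.95). HTR1B, the terminal receptor, ran from 3.56 to 21.5 TPM in controls (median 13.7), from 6.91 to 34.0 TPM in LD* (median 15.1) and from 3.72 to 32.8 TPM in HD* animals (median 13.1). HTR1D ran from 1.86 to 30.2 TPM in controls (median 8.93), from 1.49 to 34.0 TPM in LD* (median 14.2) and from 2.93 to 26.9 TPM in HD* animals (median 17.0). The 3 groups overlapped for each of these receptors, and the highest and the lowest HTR1D values both fell in the LD* group.

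Of the Gq/11-coupled receptors, HTR2A ran from 1.57 to 7.23 TPM in controls (median 5.79), from 2.63 to 11.1 TPM in LD* (median 5.99) and from 1.22 to 7.76 TPM in HD* animals (median 4.26). HTR2C ran from 17.1 to 83.1 TPM in controls (median 64.8), from 22.7 to 95.8 TPM in LD* (median 55.6) and from 9.91 to 103.6 TPM in HD* animals (median 51.9). Both overlapped across all groups. Of the Gs-coupled receptors, HTR4 ran from 1.49 to 26.7 TPM in controls (median 13.2), from 6.12 to 23.3 TPM in LD* (median 15.9) and from 4.92 to 21.4 TPM in HD* animals (median 12.5). HTR6 ran from 4.95 to 65.3 TPM in controls (median 25.4), from 18.8 to 49.3 TPM in LD* (median 32.6) and from 12.7 to 51.6 TPM in HD* animals (median 34.2). HTR7 ran from 1.27 to 8.00 TPM in controls (median 2.08), from 1.37 to 5.14 TPM in LD* (median 2.48) and from 0.836 to 6.64 TPM in HD* animals (median 1.67). Controls spread most widely in HTR4, HTR6 and HTR7, and control 6 gave the lowest HTR4 and HTR6 and the highest HTR7 of all 24 animals.

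**Figure D2:**
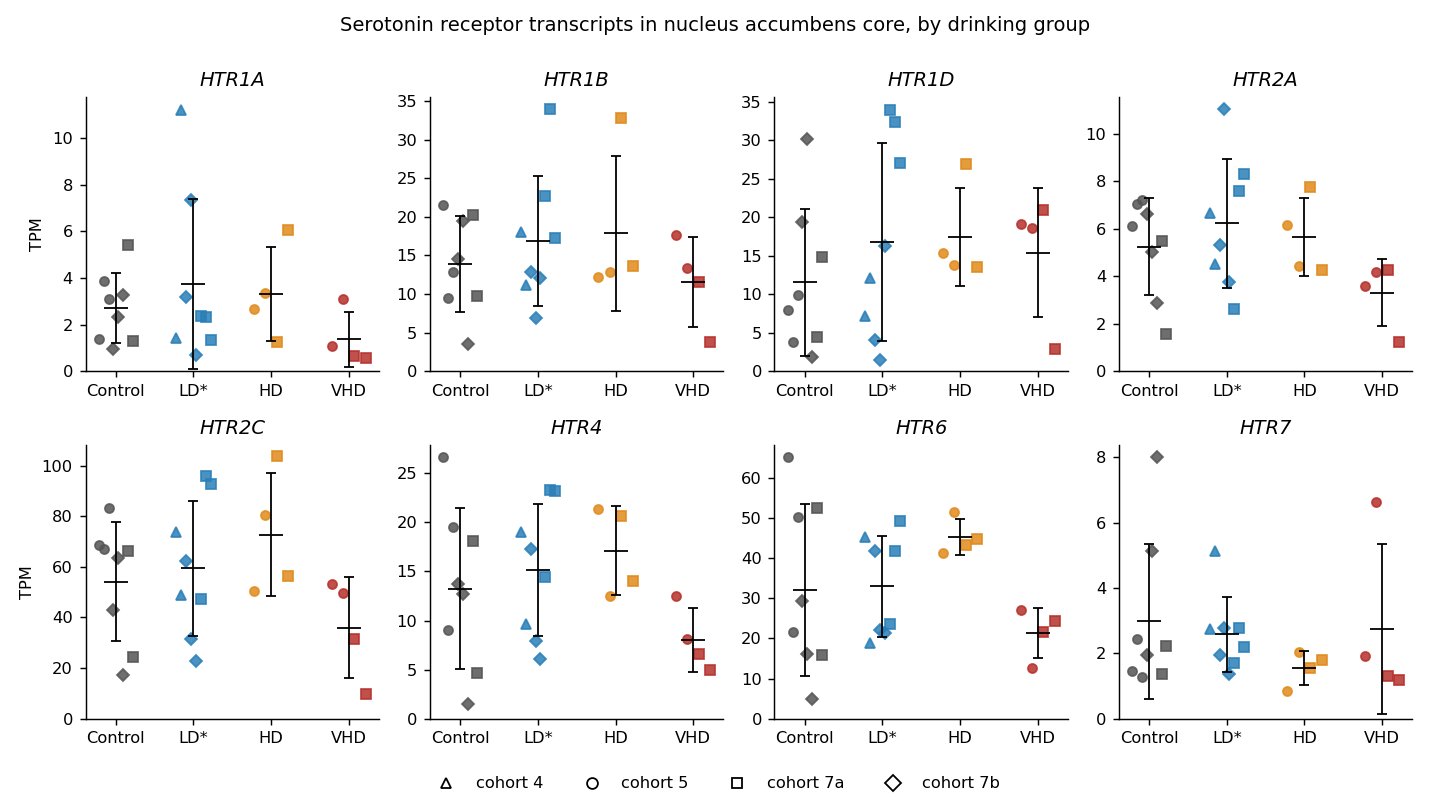
TPM of the 8 receptors in controls, LD*, HD and VHD animals (n = 8, 8, 4 and 4), 1 point per animal with the shape giving its cohort, and bars for mean ± SD. Control and LD* values overlap in every panel, and the HD and VHD values separate for HTR6 (41.3 to 51.6 against 12.7 to 27.0 TPM) and HTR2A (4.27 to 7.76 against 1.22 to 4.25 TPM).

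In limma on log2(TPM + 1), 0 of 8 receptors passed an adjusted p of 0.05 between HD* animals and controls, where 0 of the 13637 tested genes did (0%). The paper tested read counts of these animals with DESeq2. It reported genes past an FDR of 0.05 for HD* animals against controls and against LD* animals. The lack of calls here is therefore a result of this test on TPM and does not mean that no gene differed. At an unadjusted p under 0.05 there were 0 receptors and 775 genes (5.68%). HTR1D showed the largest difference, 0.69 higher in HD* animals (SE 0.53, adjusted p = 0.706 in limma, 95% interval −0.41 to 1.79), and HTR7 lay at −0.30 (SE 0.28, adjusted p = 0.718 in limma). HTR6 lay at 0.28, HTR4 at 0.10 and HTR1B at 0.052, and HTR2C at −0.064, HTR2A at −0.19 and HTR1A at −0.22. The median difference of the 8 receptors was −0.0062, against −0.12 over all genes tested. The 95% intervals of the receptors other than HTR1D reached at most 1.07 in either direction. Without control 6 the differences of HTR1B, HTR4 and HTR6 turned to −0.17, −0.21 and −0.027, and with cohort as a covariate to −0.22, −0.24 and −0.071. TMM rescaling, which equalizes the bulk of genes between animals, moved the median of all genes from −0.12 to 3.93e-05 and turned HTR2C to 0.064.

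LD* animals were compared with the same controls, so the comparisons share 8 animals. Again 0 receptors and 0 genes (0%) passed, with 0 receptors and 387 genes (2.84%) at an unadjusted p under 0.05. Differences of LD* from controls were 0.42 for HTR1D (SE 0.53), 0.36 for HTR4 (SE 0.40), 0.29 for HTR6, 0.28 for HTR1B, 0.21 for HTR2A, 0.16 for HTR1A, 0.15 for HTR2C and −0.030 for HTR7, each with an adjusted p of 1.00 in limma. Their median was 0.24 and that of all genes −0.025. Without control 6 they fell to 0.17 for HTR1D, 0.043 for HTR4 and −0.014 for HTR6. Between HD* and LD* animals 0 receptors and 0 genes (0%) passed, and 0 receptors and 147 genes (1.08%) had an unadjusted p under 0.05. HTR2A gave the largest difference, −0.39 in HD* relative to LD* animals (SE 0.27, adjusted p = 0.937 in limma), HTR1A lay at −0.38 (SE 0.37), and the median of the 8 was −0.24 against −0.084 over all genes.

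**Figure D3:**
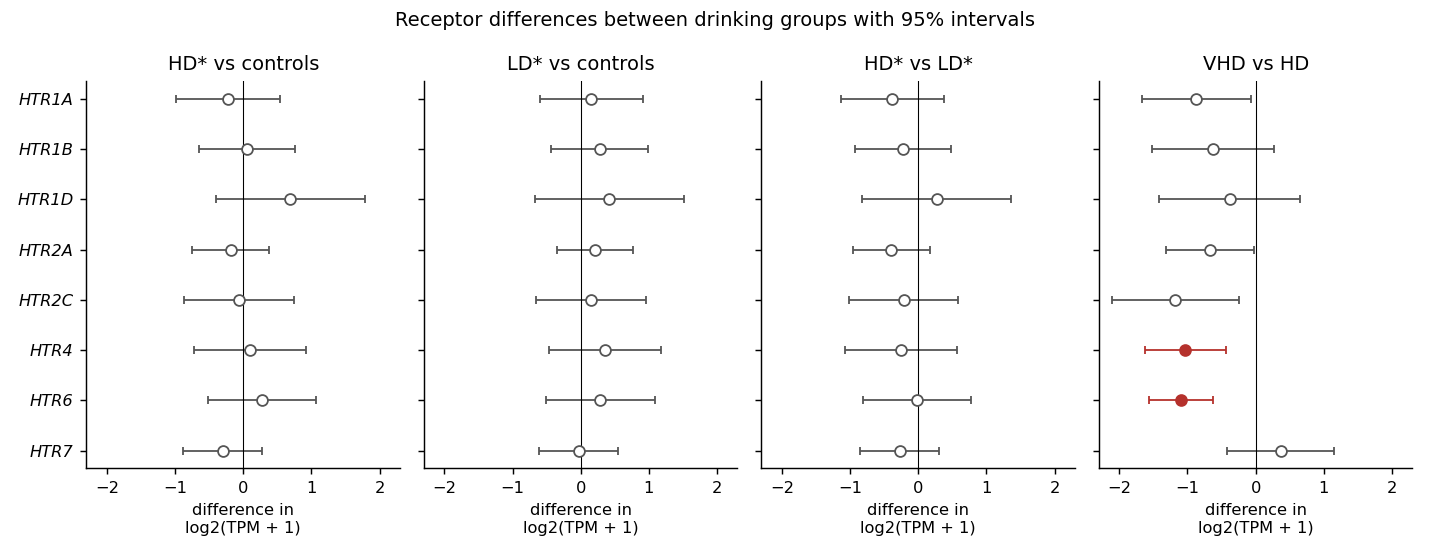
Difference in log2(TPM + 1) of each receptor in 4 comparisons of drinking groups, with 95% intervals from limma. Filled red points mark an adjusted p under 0.05, which HTR4 (−1.03) and HTR6 (−1.09) reached in VHD against HD animals, and every interval of the other 3 comparisons includes 0.

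Within the HD* group, VHD animals held less HTR6 and less HTR4 transcript than HD animals. HTR6 was 41.3, 51.6, 43.4 and 44.9 TPM in HD 1 to 4 and 27.0, 12.7, 21.6 and 24.3 TPM in VHD 1 to 4, so that the groups did not overlap. HTR4 was 21.4, 12.5, 20.6 and 14.0 TPM in HD and 12.5, 8.10, 6.63 and 4.92 TPM in VHD animals. For HTR4 the highest VHD animal (12.52 TPM) slightly exceeded the lowest HD animal (12.47 TPM). Animals 1 and 2 of each category came from cohort 5 and animals 3 and 4 from cohort 7a.

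The difference was −1.09 on the log2 scale for HTR6 (SE 0.21, adjusted p = 0.00962 in limma, 95% interval −1.56 to −0.62), lower in 4 of 4 VHD animals than in any HD animal. For HTR4 it was −1.03 (SE 0.27, adjusted p = 0.0282 in limma, 95% interval −1.63 to −0.44). Thus 2 of 8 receptors were called lower and 0 higher, where 11.4% of the 13637 genes were called lower and 3.23% higher (14.6% in all). An exact permutation test over the 70 assignments of the 8 animals gave p = 0.0286 for HTR6, the smallest it can give, and p = 0.0571 for HTR4 (two-sided). After TMM rescaling, which moved the median difference of all genes from −0.17 to 0.0048 and the calls from 441 higher and 1556 lower to 1180 higher and 1416 lower, HTR6 lay at −0.89 (adjusted p = 0.0515 in limma) and HTR4 at −0.85 (adjusted p = 0.0324). With all genes above 0 tested, HTR4 had an adjusted p of 0.0701 in limma, and its call was also lost on leaving out HD 1, HD 3, HD 4 or VHD 3 (adjusted p from 0.0560 to 0.0988).

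HTR2C and HTR2A were measured at lower levels in VHD animals without passing. HTR2C was 50.6, 80.3, 103.6 and 56.4 TPM in HD and 53.3, 49.5, 31.3 and 9.91 TPM in VHD animals (difference −1.18, SE 0.43, adjusted p = 0.0821 in limma; exact permutation p = 0.0571). HTR2A was 6.15, 4.43, 7.76 and 4.27 TPM in HD and 3.58, 4.20, 4.25 and 1.22 TPM in VHD animals, which did not overlap by a margin of under 0.1 TPM (difference −0.67, SE 0.30, adjusted p = 0.140 in limma; exact permutation p = 0.0286). Groups without overlap, with VHD lower, were found for 2 of 8 receptors and for 17.9% of all genes tested. HTR1A was 2.66, 3.35, 1.24 and 6.04 TPM in HD and 1.08, 3.11, 0.665 and 0.585 TPM in VHD animals (difference −0.87, adjusted p = 0.126 in limma). Without VHD 2, HTR1A and HTR2C also passed (adjusted p = 0.0162 and 0.0279 in limma), and 4651 genes did in place of 1997. Without VHD 3 there were 476 genes, and HTR6 alone among the receptors passed.

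HTR1B, HTR1D and HTR7 overlapped between the categories. HTR1B was 12.2, 12.8, 32.8 and 13.6 TPM in HD and 17.6, 13.4, 11.6 and 3.72 TPM in VHD animals, and HTR1D was 15.3, 13.8, 26.9 and 13.6 TPM in HD and 19.1, 18.6, 21.0 and 2.93 TPM in VHD animals. Their differences were −0.62 (SE 0.41, adjusted p = 0.313 in limma) and −0.38 (SE 0.48, adjusted p = 0.606 in limma). HTR1D reversed to 0.21 without VHD 4, which held the lowest level of HTR1A, HTR1B, HTR1D, HTR2A, HTR2C and HTR4 among the HD* animals. The median TPM over all genes was also lowest in VHD 4, at 7.39. Without VHD 4 the differences of HTR2A and HTR2C shrank to −0.38 and −0.67. HTR6 and HTR4 kept their calls without it (adjusted p = 0.0104 and 0.0456 in limma). HTR7 was 0.836, 2.04, 1.54 and 1.80 TPM in HD and 1.91, 6.64, 1.29 and 1.17 TPM in VHD animals (difference 0.37, SE 0.36, adjusted p = 0.502 in limma). At an unadjusted p under 0.05 there were 5 of 8 receptors and 32.7% of all genes, and the median difference was −0.77 for the receptors and −0.17 for all genes.

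Markers of striatal projection neurons moved with HTR6 and HTR4. Of 9 markers 8 were called lower in VHD animals, among them DRD1 (−1.20, adjusted p = 0.00489 in limma), the D1 dopamine receptor. Their summed level ran from 9182 to 10781 TPM in HD and from 3494 to 6217 TPM in VHD animals, and none of the 9 was at 0 in any animal. Of 6 astrocyte markers all 6 lay higher in VHD animals, and only GFAP was called (1.39, adjusted p = 0.0135 in limma). The summed astrocyte markers were 1769 to 3253 TPM in HD and 3917 to 6570 TPM in VHD animals. GFAP made up much of this sum, at 1171 TPM in HD and 2911 TPM in VHD animals on average. The astrocyte score, which weighs the markers equally, overlapped between the categories (−0.013 in HD 1 and −0.29 in VHD 4). Of the other lists, 1 of 6 oligodendrocyte markers (MBP) and 2 of 6 microglia markers (AIF1 and C1QB) were called higher, and 0 of 6 interneuron, 0 of 5 cortical, 0 of 3 endothelial and 0 of 3 choroid plexus markers were called. The oligodendrocyte list was split, with 3 markers higher and 3 lower (median difference −0.043). The microglia list had 4 markers higher and 2 lower (median 0.31). In the comparisons of HD*, LD* and control animals 0 markers of any list were called. With the projection neuron score as a covariate, an alternative added after the values were seen, HTR6 differed by −0.047 (SE 0.45) and HTR4 by −0.23 (SE 0.67), and 0 receptors and 0 genes passed in limma, with 1775 genes at an unadjusted p under 0.05. The standard errors were wider than the 0.21 and 0.27 found without the score. In bulk tissue, fewer cells of a type and less RNA per cell cannot be told apart, and the score itself separated the categories (0.66 ± 0.12 in HD and −0.33 ± 0.33 in VHD animals, mean ± SD, n = 4 each).

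Other genes of the serotonin pathway give the setting of these receptors. Of 43 listed genes outside the 8, 40 were measured and 31 reached the mean of 1 TPM needed for testing. Serotonin synthesis and reuptake transcripts were near 0 (TPH2 at most 0.331 TPM and SLC6A4, the serotonin transporter, at most 0.348 TPM), and both are made in raphe cell bodies outside the tissue sampled. Among the remaining receptors, the Gi/o-coupled HTR1E averaged 9.30 ± 3.17 TPM and HTR5A 8.59 ± 2.97 TPM, the ion channel subunit HTR3A averaged 1.39 ± 1.34 TPM, and HTR1F (0.165 TPM), HTR2B (0.419 TPM), HTR3B (0.0605 TPM) and HTR3C (0.00344 TPM) lay below 1 TPM. HTR1E and HTR5A were thus at levels between those of HTR4 and HTR2A.

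In VHD against HD animals 7 of the 31 pathway genes were called lower and 0 higher, where 11.4% of all genes tested were called lower and 3.23% higher, and none was called in the other comparisons. GNAO1, the Go alpha subunit that HTR1 receptors use, lay at −0.89 (SE 0.14, adjusted p = 0.00489 in limma), and ADCY5, the main adenylyl cyclase of the striatum, at −0.90 (SE 0.15, adjusted p = 0.00641 in limma). The others were PLCB1 and ITPR1 of the Gq/11 pathway, the RNA-editing enzymes ADAR and ADARB1, which edit the HTR2C transcript, and HTR1E (−0.72, adjusted p = 0.0494 in limma). At an unadjusted p under 0.05, 2 pathway genes lay lower in HD* animals than controls, GNAI3 (−0.32, adjusted p = 0.706 in limma) and the HTR2C partner MPDZ (−0.31, adjusted p = 0.706 in limma), and GNAI3 lay lower in LD* animals (−0.31, adjusted p = 1.00 in limma). There was none between HD* and LD* animals.

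Intake among the 16 drinkers was taken as a slope per g/kg of daily ethanol. In limma 0 receptors and 0 genes (0%) passed an adjusted p of 0.05, and 0 receptors and 907 genes (6.65%) had an unadjusted p under 0.05. HTR1A had the steepest slope, −0.42 per g/kg on the log2 scale (SE 0.20, adjusted p = 0.512 in limma). On leaving out 1 animal that slope ran from −0.52 to −0.17. LD* 2, from cohort 4, had both the lowest intake (0.47 g/kg) and the highest HTR1A (11.2 TPM) of the drinkers. HTR2A lay at −0.25 (SE 0.15) and HTR1D at 0.20 (SE 0.29). Of the pathway genes, GNAI1 had an unadjusted p under 0.05 (−0.25, adjusted p = 0.512 in limma). With cohort as a covariate the median slope of all genes tested moved from −0.068 to −0.18, so steeper slopes were not particular to the receptors. HTR4 then lay at −0.81 (SE 0.28, adjusted p = 0.134 in limma) and HTR2C at −0.89 (SE 0.35, adjusted p = 0.138 in limma). HTR1D lay at −0.76, so its direction reversed. Of the 13637 genes tested in that fit, 4014 had an unadjusted p under 0.05 and 0 an adjusted one.

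Intakes of LD* and HD* animals formed separate ranges, so correlations were taken within each group of 8 by exact permutation and adjusted over 16 relations. HTR2A fell in rank with intake in HD* animals (Spearman rho −0.91, exact p = 0.00298, adjusted p = 0.0476), but Pearson's r was −0.59 (exact p = 0.179, adjusted p = 0.786) and −0.82 without the 2 animals farthest from the median intake. HTR4 gave rho −0.72 (exact p = 0.0521, adjusted p = 0.278) and r −0.50 (exact p = 0.223, adjusted p = 0.786). Without the same 2 animals r was also stronger for HTR4 (−0.88), HTR1B (−0.84), HTR2C (−0.75), HTR6 (−0.69) and HTR1D (−0.66). It was −0.14 for HTR1A and 0.36 for HTR7. HD and VHD divide these 8 animals by intake, so the relations are not independent of the VHD against HD differences. In LD* animals HTR7 gave r −0.84 (exact p = 0.0313, adjusted p = 0.502) and rho −0.73 (exact p = 0.0459, adjusted p = 0.278), and r −0.32 without the 2 animals farthest from the median, so the relation rests on those animals. They were LD* 1 and LD* 2, the only animals of cohort 4, so intake and cohort cannot be told apart in it. Each cohort held at most 4 animals of either group, too few for a correlation within cohorts.

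Cohorts were compared with drinking group in the model. An F test in limma passed 0 receptors and 0 genes (0%) at an adjusted p of 0.05, and 0 receptors and 1140 genes (8.36%) at an unadjusted p under 0.05. HTR2C gave the smallest p of the receptors (adjusted p = 0.540 in limma), with 64.6 ± 13.9 TPM in cohort 5 (n = 7), 58.6 ± 33.6 TPM in cohort 7a (n = 9) and 40.1 ± 19.8 TPM in cohort 7b (n = 6). GNAQ, the Gq alpha subunit, and GCH1, which makes the cofactor of serotonin synthesis (adjusted p = 0.540 in limma for both), were the pathway genes past an unadjusted p of 0.05. HTR1D was singled out within cohorts after its values were seen, so the values are given as a description. In cohort 5 HTR1D was 13.8 to 19.1 TPM in 4 HD* animals and 3.78 to 9.89 TPM in 3 controls, and 1.04% of all genes tested had every HD* animal above every control there. In cohort 7a the 3 LD* animals held 27.1, 32.3 and 34.0 TPM, above the 2 controls (4.44 and 14.8 TPM) and the 4 HD* animals (2.93 to 26.9 TPM), as did 1.06% of all genes tested, whereas in cohort 7b LD* animals held 1.49 to 16.3 TPM and controls 1.86 to 30.2 TPM. The HD* effect did not differ detectably between cohorts 5 and 7a for HTR1D (interaction −0.62, SE 0.86, adjusted p = 1.00 in limma) or for any other receptor, and 0 genes (0%) passed, with 294 (2.16%) at an unadjusted p under 0.05.

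How the receptors varied among themselves was examined over all 24 animals, for 28 pairs, with permutation p-values from 100000 resamples adjusted over the pairs. HTR4 and HTR6, both Gs-coupled, gave the highest correlation (Pearson r 0.87, Spearman rho 0.76, permutation p = 1e-05, the smallest possible, adjusted p = 9.33e-05, adjusted p = 0.000467 for rho), 0.77 without the 2 animals farthest from the median and 0.80 without control 6. It was 0.86 in cohort 5, 0.86 in cohort 7a and 0.90 in cohort 7b. HTR2C correlated with HTR4 (r 0.84, rho 0.80, permutation p = 1e-05, adjusted p = 9.33e-05, adjusted p = 0.000280 for rho), at 0.82 without the 2 farthest animals, but at 0.25 in cohort 5 against 0.94 and 0.91 in cohorts 7a and 7b. HTR1B correlated with HTR2C (r 0.80, rho 0.66, permutation p = 1e-05, adjusted p = 9.33e-05, adjusted p = 0.00313 for rho) at 0.62 without the 2 farthest animals, and at −0.082, 0.93 and 0.80 in cohorts 5, 7a and 7b. HTR6 and HTR7 ran in opposite directions (r −0.69, rho −0.48, permutation p = 0.000180, adjusted p = 0.000840, adjusted p = 0.0461 for rho), at −0.53 without the 2 farthest animals, −0.54 without control 6, and −0.82, 0.13 and −0.86 in cohorts 5, 7a and 7b, so the relation did not hold within cohort 7a. HTR1B and HTR1D gave r 0.69 (adjusted p = 0.000728, permutation). HTR1A gave no correlation past an adjusted p of 0.05 with any of the other 7 receptors (r from −0.34 to 0.39). The share of genes tested with an r as large, in the same direction, with the first gene of a pair was also taken. It was 2.87% for HTR4 and HTR6, 3.80% for HTR2C and HTR4, and 0.205% for HTR1B and HTR2C. It was 7.50% for HTR6 and HTR7, 2.14% for HTR1B and HTR1D, 27.2% for HTR2C and HTR6 (r 0.65) and 41.4% for HTR2A and HTR6 (r 0.47).

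The marker scores, which are the mean centred log2(TPM + 1) of each cell type's markers, were set beside the receptors in 64 relations added after the values were seen. HTR6 followed the striatal projection neuron score at r 0.94 (rho 0.88, permutation p = 1e-05, adjusted p = 0.000213, adjusted p = 0.000320 for rho), 0.92 without the 2 farthest animals, 0.92 without control 6, and 0.96, 0.95 and 0.97 in cohorts 5, 7a and 7b. A correlation of at least this size with that score was found for 0.543% of all genes tested. HTR4 gave r 0.91 (rho 0.87, permutation p = 1e-05, adjusted p = 0.000213, adjusted p = 0.000320 for rho), 0.84 without the 2 farthest animals, and 0.91, 0.90 and 0.95 in the cohorts. HTR2C gave r 0.67 (rho 0.71, permutation p = 0.000850, adjusted p = 0.00604, adjusted p = 0.00141 for rho), 0.59 without the 2 farthest animals, and 0.51, 0.76 and 0.75 in the cohorts, and HTR1B gave r 0.65 (rho 0.53, permutation p = 0.000700, adjusted p = 0.00560, adjusted p = 0.0352 for rho), 0.46 without the 2 farthest animals, 0.48 without control 6, and 0.30, 0.60 and 0.84 in the cohorts. A correlation as large in the same direction was found for 1.16% of genes tested in the case of HTR4, 8.27% for HTR2C and 9.46% for HTR1B. HTR7 ran against the score (r −0.65, rho −0.51, permutation p = 0.00108, adjusted p = 0.00628, adjusted p = 0.0465 for rho), at −0.49 without the 2 farthest animals, −0.45 without control 6, and −0.88, 0.11 and −0.81 in the cohorts, so not within cohort 7a, and 8.81% of genes had an r as large in the same direction. It followed the interneuron score (r 0.73, rho 0.61, permutation p = 6.00e-05, adjusted p = 0.000640, adjusted p = 0.0115 for rho), at 0.63 without the 2 farthest animals and 0.87, 0.79 and 0.99 in the cohorts, and 2.31% of genes had an r as large in the same direction. Control 6 had the highest interneuron score (0.90), but its summed interneuron markers (966 TPM) lay below the median of 1371 TPM. HTR7 also gave r 0.64 with the choroid plexus score and 0.60 with the astrocyte score. Their adjusted p were 0.00628 and 0.00896 by permutation for r, and 0.0784 and 0.0596 for rho.

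HTR1A followed the cortical excitatory neuron score (r 0.75, rho 0.68, permutation p = 4.00e-05, adjusted p = 0.000512, adjusted p = 0.00448 for rho), with 0.72 without the 2 farthest animals and 0.55, 0.80 and 0.84 in cohorts 5, 7a and 7b. A correlation as large was found for 0.367% of genes tested, and the other receptors ran from −0.48 (HTR1D) to 0.06 (HTR7) with this score. The 2 highest HTR1A values, 11.2 TPM in LD* 2 and 7.36 TPM in LD* 4, came with cortical marker sums of 248 and 872 TPM, against a median of 7.55 TPM over the 24 animals. The part of cortical cells in the HTR1A level was not tested. HTR6 also ran against the astrocyte score (r −0.78, rho −0.80, permutation p = 1e-05, adjusted p = 0.000213, adjusted p = 0.000640 for rho), at −0.78 without the 2 farthest animals and −0.94, −0.76 and −0.80 in the cohorts, and 0.374% of genes had an r as large in the same direction. This was not particular to astrocytes. HTR6 gave r −0.76 with the choroid plexus score (adjusted p = 0.000320, permutation), again with 0.374% of genes as large. It gave r −0.64 with the microglia score (adjusted p = 0.00560, permutation). With the endothelial score r was 0.39 (adjusted p = 0.144, permutation).

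**Figure D4:**
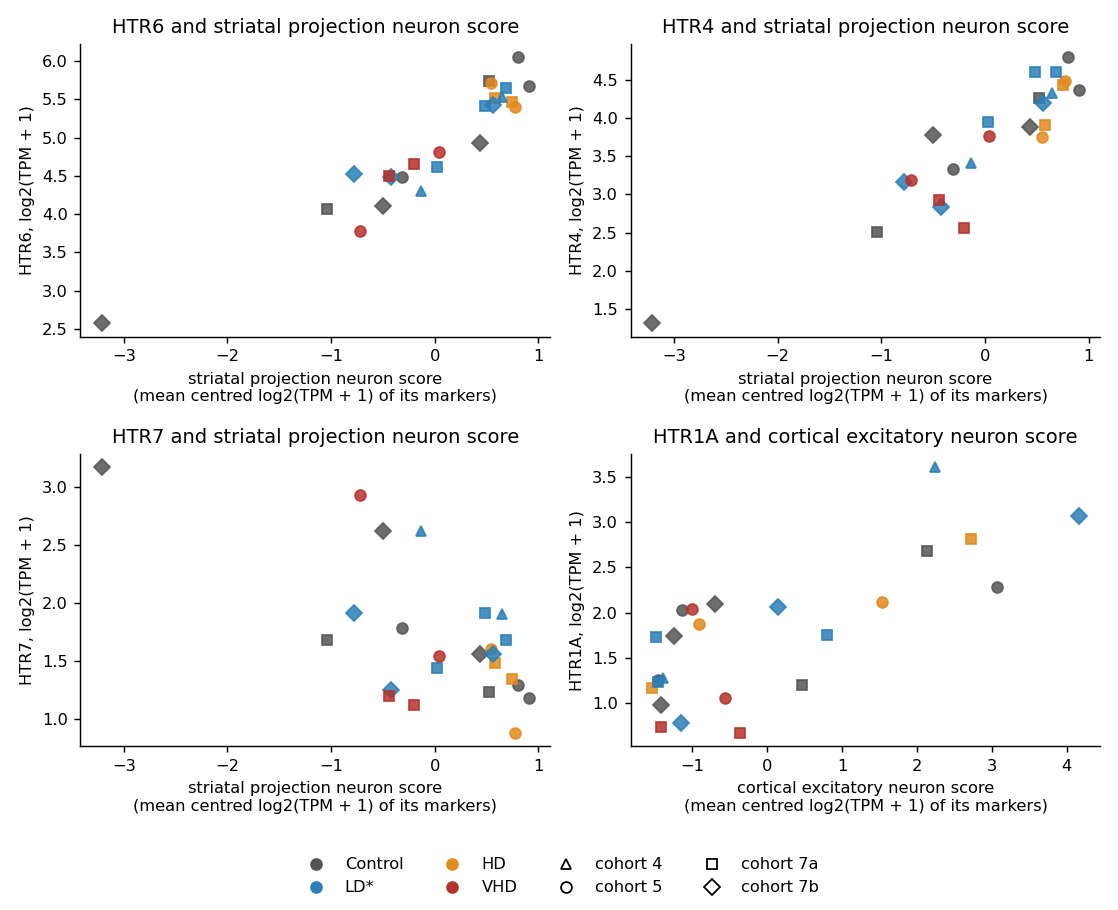
HTR6, HTR4 and HTR7 against the striatal projection neuron score and HTR1A against the cortical excitatory neuron score, all on log2 scales, 1 point per animal with color for group and shape for cohort. HTR6 and HTR4 rise along the score (r 0.94 and 0.91), HTR7 falls (r −0.65) and HTR1A rises with the cortical score (r 0.75), and the control at the far left of the first 3 panels is control 6.

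**Figure D5:**
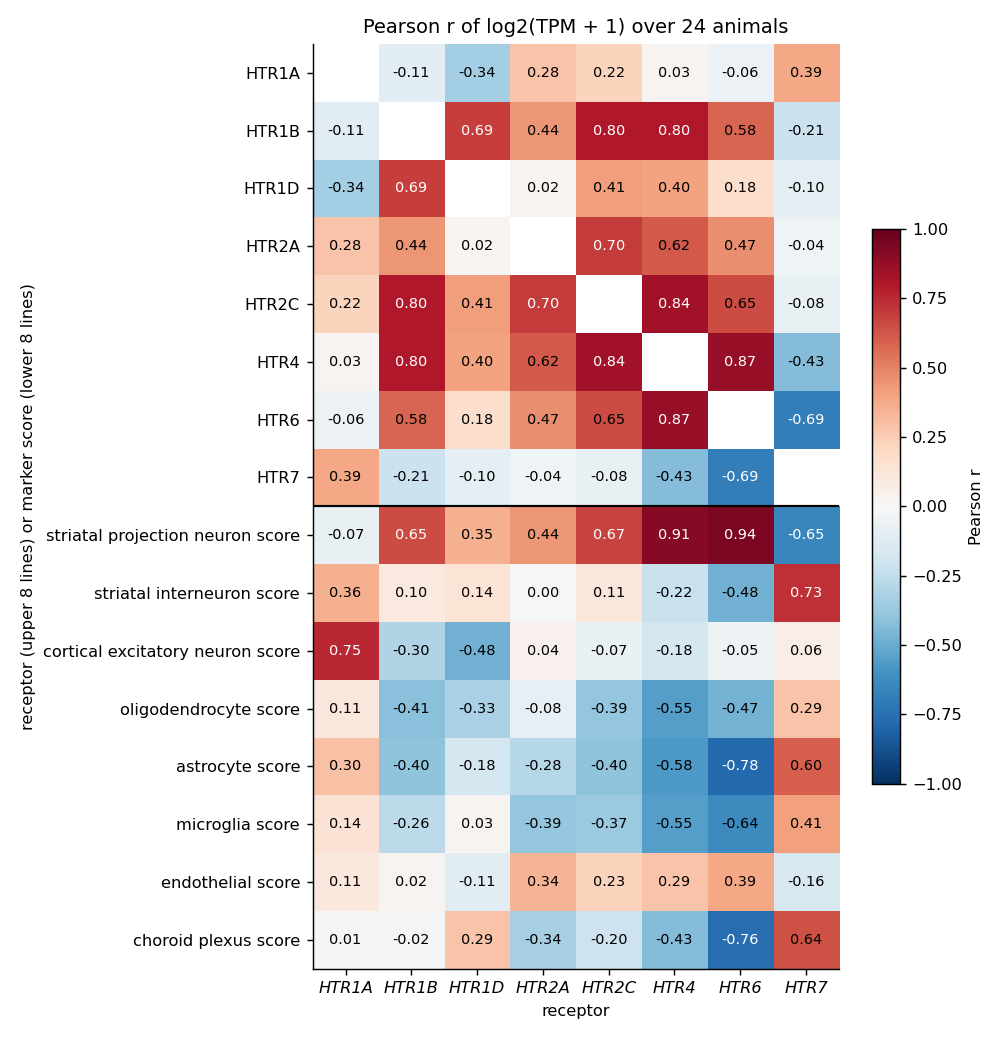
Pearson r over the 24 animals between the 8 receptors (upper lines) and of each receptor with 8 marker scores (lower lines), red for positive and blue for negative. HTR1B, HTR2A, HTR2C, HTR4 and HTR6 form a block of positive values (r 0.44 to 0.87), and HTR1A and HTR7 stand outside it. HTR1D gives r from 0.02 to 0.69 with members of the block, and only its pair with HTR1B (r 0.69) passed an adjusted p of 0.05 by permutation. With HTR2A r was 0.02, and with HTR6 r was 0.18 and rho −0.047. Some block values are common, and 41.4% of genes tested had an r with HTR2A as large as that of HTR6.

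The genes most like each receptor over the 24 animals were taken as those with the highest Pearson r of log2(TPM + 1), given as a description because all values share libraries. For HTR6 they were ADCY5 (r 0.97), PROSAPIP1 (0.97) and RASD2 (0.97), with ADCY5 at 339 TPM and RASD2, a striatal GTP-binding protein, at 486 TPM on average. For HTR4 they included SMAD3 (0.97) and GPR101 (0.96), and for HTR2C UQCRC2 (0.96), ZC2HC1C (0.94) and NOL4 (0.94). HTR7 was most like GNAS (0.93), which encodes the Gs alpha subunit, CELF6 (0.93) and KCNAB3 (0.91). HTR1D was most like OTOF (0.92), RBM20 (0.83) and WFS1 (0.76), HTR1B like C2CD2 (0.89), FAM160A1 (0.89) and RBM24 (0.87), HTR2A like C5orf30, RABGAP1L and RBM12B (0.88 each), and HTR1A like CDH13 (0.87), GABRQ (0.84) and B3GALT2 (0.84). An r of at least 0.9 was reached by 224 genes for HTR4, 162 for HTR6, 56 for HTR2C, 9 for HTR7, 1 for HTR1D and 0 for HTR1A, HTR1B and HTR2A.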

How the data were processed

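RNA-Seq of the NAcc from 24 animals was used. The authors made polyA-selected libraries, aligned reads to the MacaM assembly with STAR (2.5.2b in the submitters' processing notes), counted them with HTSeq (0.6.1p1) and used DESeq2 for their own tests. What was deposited are TPM values, computed by the authors in a way not given in the sources used here and named normalized counts. Columns summed to between 999998 and 1000000, so the depth of each animal is unknown (the paper gives an average over samples only) and no counting error or count test could be given. The paper and the public record differ on library strand and read pairing, so reads of overlapping antisense genes may not be separated.

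The 13637 of 17208 genes whose mean reached 1 TPM were tested on log2(TPM + 1) with limma 3.58.1 (trend) in R 4.3.3, adjusted by the Benjamini-Hochberg method over all genes. A log2 difference on this scale understates changes of low genes such as HTR1A and HTR7. One fit of 3 groups gave the HD* and LD* contrasts, and separate fits gave VHD against HD, the intake slope, cohorts and the interaction with cohort. Permutation tests and plots used Python 3.11.15, scipy 1.17.1, numpy 2.4.6, pandas 2.3.3 and matplotlib 3.10.9. The tests were tested on simulated data. Alternatives were a pseudocount of 0.1, no filter, a mean of at least 10 TPM, TMM (trimming 30% of M and 5% of A), cohort, an oligodendrocyte score, only the compared groups, each animal left out and, added later, projection neuron and cortical scores. The 8 receptors, the pathway and marker lists and the rule for named genes (all 8 receptors, the other receptors, TPH2, SLC6A4, 2 pathway genes with the smallest unadjusted p under 0.05 per comparison, 3 genes most like each receptor, 1 of which is not reported here) were chosen with earlier results of these data known. The members of the pathway list called in VHD against HD, DRD1, GFAP, MBP, AIF1 and C1QB were named after their values were seen. All 8 symbols were found in the RefSeq names of a different rhesus assembly, so no coordinates are given. HTR3D, HTR3E, GNAL and PECAM1 were not analysed here. Per the labels each animal is 1 sample, no 2 animals had identical values (0 of 276 pairs), and correlations between animals ran from 0.893 to 0.992.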

Additional observations from a re-analysis of the deposited data

Results flagged for a closer look

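In groups of 4 or 8 animals, a highest or lowest value was flagged if its gap to its nearest neighbor exceeded Dixon's 95% limit. Of 83 combinations of gene and group 16 were flagged, where chance gives about 1 in 20 for normally distributed values. The values used were TPM, some at or near 0, and HD and VHD animals were counted again within HD*. The count of flags therefore cannot be set against that rate. HD 3 lay above the other HD animals in HTR1B (32.8 TPM, the others 12.2 to 13.6 TPM) and HTR1D (26.9 TPM, the others 13.6 to 15.3 TPM), the release-modulating pair. VHD 4 lay below the other VHD animals in HTR1D (2.93 TPM, the others 18.6 to 21.0 TPM). VHD 2 lay above the others in HTR7 (6.64 TPM), both among VHD animals (1.17 to 1.91 TPM) and among all HD* animals (0.836 to 2.04 TPM), and LD* 2 lay above the other LD* animals (5.14 TPM, the others 1.37 to 2.77 TPM). For HTR2B, control 4 (0.847 TPM, the others 0.281 to 0.460 TPM) and LD* 1 (0.854 TPM, the others 0.280 to 0.451 TPM) stood out at levels too low for testing. HTR3A reached 6.73 TPM in LD* 4 and 0 to 2.08 TPM in the other LD* animals. LD* 4 also held the highest cortical marker sum (872 TPM), and the part of those cells in HTR3A was not tested.

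The remaining values lie close to 0. HTR3C was above 0 in control 2 (0.0428 TPM) among controls and in HD 1 (0.0398 TPM) among HD and among all HD* animals. TPH2 was 0.270 TPM in VHD 2 and at most 0.126 TPM in the other HD* animals. SLC6A4 was 0.348 TPM in control 8 (the others 0.00752 to 0.0490 TPM), 0.187 TPM in LD* 6 (the others 0 to 0.0556 TPM) and 0.0164 TPM in HD 4, while it is listed at 0 in the other HD animals.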

How the results depend on the processing

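Of 459 results recomputed with other settings, 426 were held unchanged and 24 reversed. For a receptor difference, unchanged meant the same direction and side of the threshold, and for the cohort F test the same side only. A count of calls was held unchanged within a limited fold change. The 1997 genes called in VHD against HD thus counted as unchanged at 1408 without a filter and at 2757 with cohort. Calls changed only in VHD against HD animals. There 2 receptors became 1 without a filter, 1 after TMM rescaling and 0 with the projection neuron score, and 1997 genes became 0 with that score and 571 with the cortical score. On leaving out 1 animal the number of genes called ran from 476 to 4651 and that of receptors from 1 to 4. HTR6 kept its call in all 8 of these (adjusted p from 0.00326 to 0.0413 in limma). In the HD*, LD* and intake comparisons 0 genes and 0 receptors passed in every setting tried, and so for cohorts.

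Directions reversed for HD* against controls in HTR1B (−0.22 with cohort, −0.094 with the oligodendrocyte score, −0.19 with the projection neuron score), HTR4 (−0.24, −0.13 and −0.30), HTR6 (−0.071 with cohort, −0.12 with the projection neuron score) and HTR2C (0.064 after TMM). For LD* against controls they reversed with the oligodendrocyte score in HTR2C (−0.10) and HTR7 (0.10), and with the projection neuron score in HTR2C (−0.13), HTR4 (−0.018), HTR6 (−0.081) and HTR7 (0.16). For HD* against LD* animals HTR1D (−0.12) and HTR7 (0.11) reversed with cohort, and HTR6 after TMM (0.074) and with the oligodendrocyte score (0.084). VHD against HD turned in HTR7 with the projection neuron score (−1.43), and the intake slope in HTR1D with cohort (−0.76) and in HTR6 after TMM (0.027), with the oligodendrocyte score (0.024) and with the projection neuron score (0.020). The cause of these reversals was not tested, and none of the reversed values had passed. Leaving out 1 animal gave HD* against controls from −0.17 to 0.27 for HTR1B, −0.27 to 0.24 for HTR2C, −0.21 to 0.28 for HTR4 and −0.027 to 0.47 for HTR6. For LD* against controls it gave −0.081 to 0.32 for HTR1A, −0.056 to 0.32 for HTR2C, −0.014 to 0.48 for HTR6 and −0.15 to 0.16 for HTR7. For HD* against LD* animals it gave −0.068 to 0.55 for HTR1D, −0.39 to 0.088 for HTR2C and −0.12 to 0.16 for HTR6. For VHD against HD animals it gave −0.61 to 0.21 for HTR1D and −0.042 to 0.56 for HTR7, and for the intake slope −0.22 to 0.039 for HTR1B and −0.22 to 0.057 for HTR6. No paired analysis was possible because replicate numbers only name the animals and pair none across groups. Group, cohort and self-selected intake cannot be fully told apart, since 2 of 4 cohorts lack HD* animals, and the unknown depth of each animal means that the precision of low receptors such as HTR7 is known only from the spread between animals.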
